A study of Mus musculus with 6 samples.

Results

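The 10 genes described here form the core of TGF-beta signalling outside the nucleus. They are the ligands Tgfb1, Tgfb2 and Tgfb3, the receptors Tgfbr1, Tgfbr2 and Tgfbr3, the latent TGF-beta binding proteins Ltbp1, Ltbp3 and Ltbp4, and the inhibitory Smad gene Smad7. They were chosen by gene symbol, and all 10 were found among the 23366 genes of the table. RNA was sequenced from epithelial cells isolated from the submandibular salivary gland of adult mice aged 12 weeks, with 3 libraries from p63 knockout mice and 3 from mice wild type for p63. The series title places the work in the study of p63, follistatin and TGF-beta/activin signalling. The labels give no Cre driver, deleted exon or strain, and do not say whether each library came from a separate animal. The p-values therefore measure only the spread between these samples. The title of wild-type library 1 carries C where those of the other wild-type libraries carry WT, though its genotype label is wild type. Values are TPM, which are scaled for both gene length and library size, so levels of different genes can be compared. TPM keeps no record of sequencing depth, and depth was unknown.

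TGF-beta ligands are secreted in a latent form. The mature dimer stays bound to its own propeptide, and a latent binding protein tethers this complex to the extracellular matrix until an integrin or a protease releases the ligand. Free ligand joins the type II receptor kinase Tgfbr2 to the type I receptor kinase Tgfbr1, which phosphorylates Smad2 and Smad3. In epithelia the pathway is known for restraining proliferation, and in connective tissue for driving matrix production.

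Trp63, the gene that encodes p63, stood at 0.816 to 1.76 TPM in knockout libraries against 1.85 to 3.68 TPM in the wild-type ones. Follistatin (Fst), an activin antagonist, stood at 1.48 to 4.32 and 4.73 to 5.90 TPM. Knockout library 3 stood apart from the rest, with 10634 genes at 1 TPM or more against 11129 to 11235, and 80.0% of its TPM in the 50 genes most abundant on average over the 6 libraries against 68.8% to 75.8%. It lay below every wild-type library for 8 of the 10 genes described here, and for 66.9% of the 11268 genes tested. The fold changes and calls below are therefore given with and without this library.

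Tgfb2 was the leading ligand of the wild-type gland and had the largest difference of the 10 genes between genotypes. It measured 72.9, 79.8 and 63.6 TPM in wild-type libraries 1, 2 and 3. It measured 10.7, 11.6 and 27.1 TPM in knockout libraries 1, 2 and 3. The groups did not overlap, and the highest knockout value, that of library 3, was 0.426 times the lowest wild-type value. The wild-type mean of 72.1 ± 8.14 TPM (SD, n = 3) was 4.37-fold the knockout mean of 16.5 ± 9.21 TPM (SD, n = 3). On the log2(TPM + 1) scale, used for every fold change below, the difference was -2.18 (SE 0.35, 95% interval -2.99 to -1.37). Such a scale understates the change of low genes.

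In limma's test over all 11268 genes Tgfb2 ranked 60 by p and missed the threshold of 0.05 after Benjamini-Hochberg adjustment (adjusted p = 0.057). Without knockout library 3 it fell by 2.58 (SE 0.15, adjusted p = 0.00022). It passed in 4 of 19 alternative analyses, of which 3 left that library out and the other weighted the libraries by their fit. Its log2 fold change lay between -2.88 and -1.95 in those 19 (adjusted p 0.00021 to 0.26). The exact two-sided permutation test of the 3 against 3 libraries gave 0.1, the smallest p this design allows.

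The sequence upstream of Tgfb2 is shown because this gene had the largest difference, and that of Tgfb1 because it is the ligand whose groups overlapped. Each is the 250 bases before a RefSeq transcription start in build GRCm38.p6, written 5′ to 3′ on the strand of the gene. The submitters' processing notes name build mm9, so these positions do not apply to their alignments. The Tgfb2 window is on the minus strand at chr1:186705990-186706239 and overlaps an exon of the antisense non-coding gene Gm29491. The Tgfb1 window is on the plus strand at chr7:25686752-25687001 and overlaps no annotated exon. Capitals mark CACGTG, an E-box, and CAGAC, a core that Smads can bind.
Tgfb2: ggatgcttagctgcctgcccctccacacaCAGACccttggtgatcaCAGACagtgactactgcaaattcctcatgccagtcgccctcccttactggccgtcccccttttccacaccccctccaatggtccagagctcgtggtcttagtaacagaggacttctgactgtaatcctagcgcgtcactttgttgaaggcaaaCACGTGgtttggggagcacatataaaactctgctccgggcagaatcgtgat
Tgfb1: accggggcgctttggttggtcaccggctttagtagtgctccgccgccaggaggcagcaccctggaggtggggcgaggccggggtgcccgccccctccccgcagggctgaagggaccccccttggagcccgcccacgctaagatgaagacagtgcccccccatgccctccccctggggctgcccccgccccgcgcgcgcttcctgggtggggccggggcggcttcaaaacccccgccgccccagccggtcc
G and C made up 53.6% of the Tgfb2 window and 75.2% of the Tgfb1 window. The Tgfb2 window holds CACGTG at positions -51 to -46 and CAGAC at -221 to -217 and -204 to -200, counted back from the start. In all, 5 motifs were searched on both strands in 32851 windows of this length. CACGTG was in 6.02% of them, CAGAC in 42.2%, the cyclic AMP response element TGACGTCA in 1.55%, the AP-1 site TGANTCA in 6.75% and the p53 family half-site in 7.13%. The last 3 were not found in the Tgfb2 window, and none of the 5 in the Tgfb1 window. The RefSeq promoter set held 7 of the 10 genes, without Tgfb3, Tgfbr3 and Smad7.

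Tgfb3, a ligand known for its part in palate fusion, also lay lower in every knockout library. It measured 9.82, 11.3 and 6.40 TPM in wild-type libraries 1, 2 and 3, and 5.60, 5.34 and 3.29 TPM in knockout libraries 1, 2 and 3. The groups did not overlap, but wild-type library 3 lay close to the highest knockout value. Its fold change was -0.82 on the log2 scale (SE 0.29, adjusted p = 0.25) and, without knockout library 3, -0.62 (SE 0.23, adjusted p = 0.061). Of the Tgfb3 exonic bases in the GENCODE M21 annotation, 12.4% overlap the genes Gm37804 and Gm48008 on the opposite strand. The strand setting of the counting is not given in the sources used here, so reads of these genes cannot be told apart there.

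Tgfb1, a ligand known for its release by platelets and leukocytes, did not separate the genotypes. It measured 4.70, 4.76 and 3.27 TPM in wild-type libraries 1, 2 and 3, and 3.14, 4.32 and 1.95 TPM in knockout libraries 1, 2 and 3. Knockout library 2 lay inside the wild-type range. On the log2 scale the difference was -0.37 (95% interval -1.02 to 0.28, adjusted p = 0.50) and, without knockout library 3, -0.15 (adjusted p = 0.58).

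**Figure D1:**
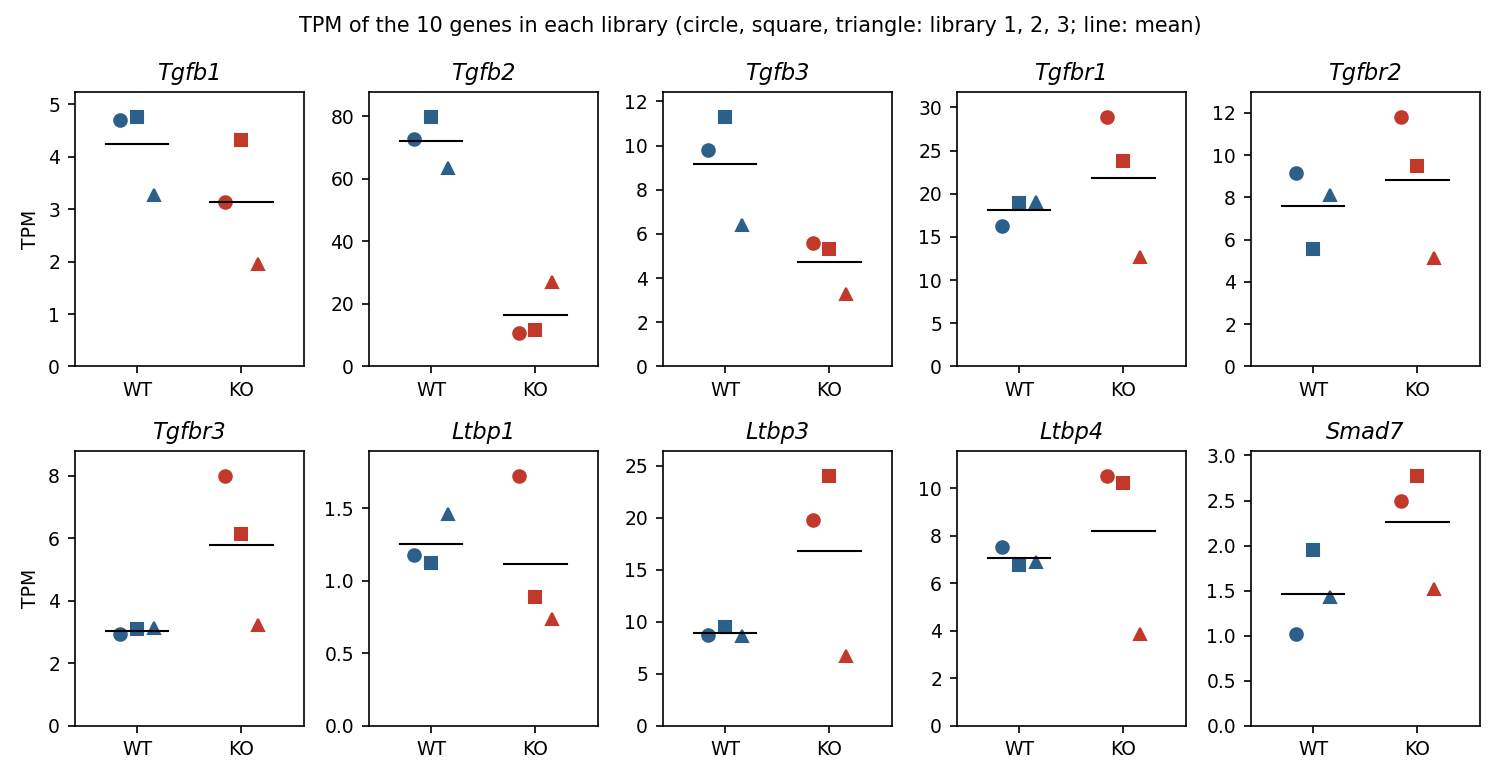
TPM of each of the 10 genes (vertical axes, linear from 0, with a range for each gene) in wild-type (WT) and knockout (KO) libraries, with circles, squares and triangles for libraries 1, 2 and 3 and a line at the mean. Tgfb2 and Tgfb3 lie lower in all 3 knockout libraries, Tgfbr3 lies higher in all 3, and knockout library 3 is the lowest of the knockout libraries for every gene plotted except Tgfb2.

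Among the receptors, Tgfbr3 lay higher in all 3 knockout libraries. Tgfbr3, or betaglycan, is a co-receptor without kinase activity that presents ligand, above all the Tgfb2 product, to Tgfbr2. It measured 7.99, 6.14 and 3.24 TPM in knockout libraries 1, 2 and 3, and 2.93, 3.09 and 3.12 TPM in wild-type libraries 1, 2 and 3. The groups did not overlap, though knockout library 3 was only 1.11 times the lowest wild-type value. The fit gave a log2 fold change of 0.68 (SE 0.30, 95% interval -0.02 to 1.38, adjusted p = 0.34). Without knockout library 3 Tgfbr3 rose by 0.99 (SE 0.16, adjusted p = 0.0034). In GENCODE M21, 4.5% of its exonic bases overlap Gm43422 on the same strand.

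Tgfbr1, the type I receptor kinase, measured 28.9, 23.8 and 12.7 TPM in knockout libraries 1, 2 and 3, and 16.3, 18.9 and 19.1 TPM in wild type. Knockout libraries 1 and 2 lay above every wild-type library, and library 3 lay below every one. The log2 fold change was 0.18 (95% interval -0.54 to 0.91, adjusted p = 0.76) and, without knockout library 3, 0.52 (adjusted p = 0.028). Tgfbr2, the type II receptor kinase, measured 11.8, 9.50 and 5.14 TPM in knockout libraries 1, 2 and 3, and 9.14, 5.56 and 8.09 TPM in wild type. Its knockout libraries fell on both sides of the wild-type range in the same way. The log2 fold change of Tgfbr2 was 0.15 (95% interval -0.62 to 0.92, adjusted p = 0.82) and, without knockout library 3, 0.46 (adjusted p = 0.12).

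Among the latent binding proteins, Ltbp3, known for its part in tooth and bone development, varied most in the knockout. It measured 19.8, 24.0 and 6.70 TPM in knockout libraries 1, 2 and 3, and 8.68, 9.47 and 8.59 TPM in wild type. Libraries 1 and 2 lay above every wild-type library and library 3 below every one. Its log2 fold change of 0.68 (SE 0.43, adjusted p = 0.44) missed the threshold, whereas without knockout library 3 Ltbp3 rose by 1.2 (SE 0.15, adjusted p = 0.0012).

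Ltbp4, which is needed for elastic fibre assembly, measured 10.5, 10.2 and 3.84 TPM in knockout libraries 1, 2 and 3, and 7.54, 6.77 and 6.90 TPM in wild type. Again knockout library 3 was the lowest of the 6 and the other knockout libraries the highest. Ltbp4 had a log2 fold change of 0.08 (95% interval -0.75 to 0.92, adjusted p = 0.91) and, without knockout library 3, 0.49 (adjusted p = 0.022). Ltbp1, which anchors the latent complex in the matrix, was close to the 1 TPM filter, at 1.72, 0.889 and 0.732 TPM in knockout libraries 1, 2 and 3 and 1.18, 1.12 and 1.46 TPM in wild type. Its groups overlapped, with a log2 fold change of -0.12 (95% interval -0.62 to 0.39, adjusted p = 0.78) and, without knockout library 3, 0.01 (adjusted p = 0.97).

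Smad7, which the pathway induces and which blocks the type I receptor, measured 2.50, 2.77 and 1.52 TPM in knockout libraries 1, 2 and 3. In wild-type libraries 1, 2 and 3 it measured 1.02, 1.95 and 1.43 TPM. Knockout library 3 lay inside the wild-type range and the other knockout libraries above it. Smad7 had a log2 fold change of 0.40 (95% interval -0.16 to 0.96, adjusted p = 0.42) and, without knockout library 3, 0.58 (adjusted p = 0.053).

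Of the 10 genes, limma called 0 lower, where 0.319% of all genes tested were called lower, and 0 higher, where 0.071% were called higher. At an unadjusted p under 0.05 there were 2 lower, Tgfb2 and Tgfb3, where 10.5% of all genes tested were lower, and 0 higher, where 4.99% were higher. The groups did not overlap for 2 genes in the lower direction, against 15.6% of all genes tested, and for 1 in the higher direction, against 5.42%. The median log2 fold change of the 10 was 0.12, beside 0.09 over all genes tested. Without knockout library 3, 1 of the 10 was called lower (Tgfb2), against 11.7% of all genes, and 4 were called higher (Tgfbr1, Tgfbr3, Ltbp3 and Ltbp4), against 33.8%. In those 5 libraries 6 of the 10 lay higher without overlap, against 47.3% of all genes, and 2 lay lower, against 19.8%. The median of the 10 was then 0.48, beside 0.26 over all genes.

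Rescaling moved the receptor and binding protein calls. With median-of-ratios scaling and no knockout library 3, chosen after the data were seen, the median over all genes was 0.03. Tgfbr3 (log2 fold change 0.77, adjusted p = 0.0091) and Ltbp3 (0.96, adjusted p = 0.0035) were still called higher. Tgfbr1 (0.26, adjusted p = 0.19) and Ltbp4 (0.26, adjusted p = 0.15) were not. Tgfb2 fell by 2.83 (adjusted p = 0.00021) and Tgfb3 by 0.85 (adjusted p = 0.026), so both were called lower. Over all genes this setting called 22.1% higher and 19.1% lower.

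**Figure D2:**
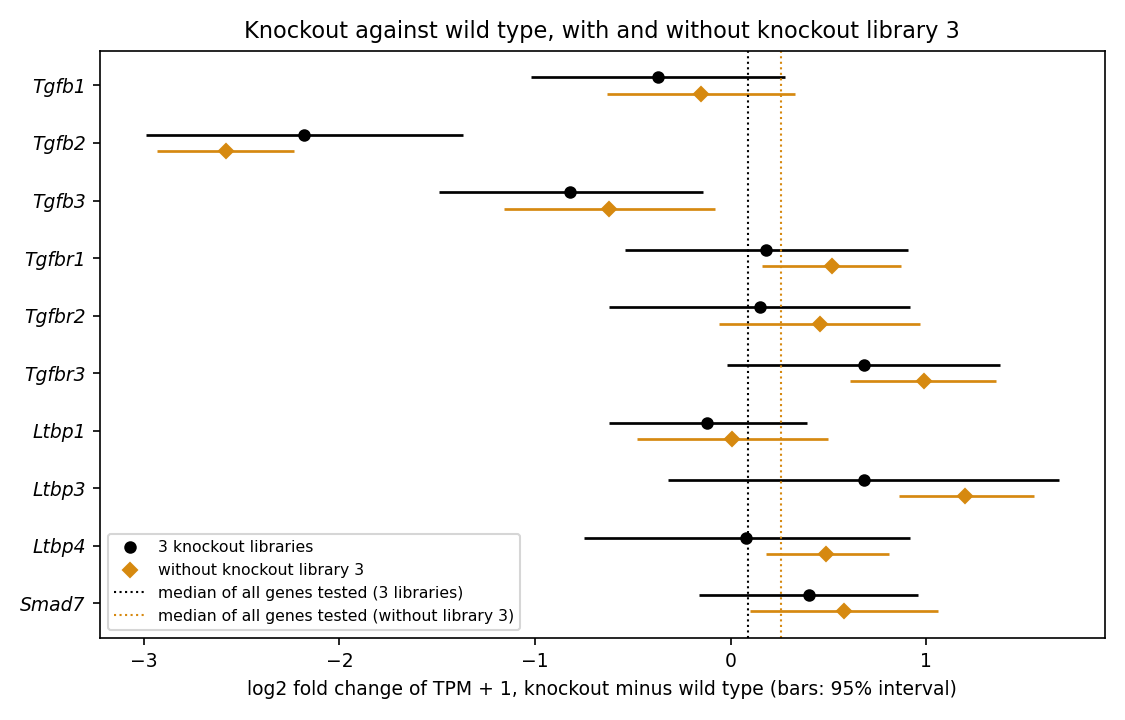
Log2 fold change of TPM + 1, knockout minus wild type (horizontal axis), for each gene with all libraries (black circles) and without knockout library 3 (orange diamonds), with 95% intervals as bars and dotted lines at the medians over all genes tested, 0.09 and 0.26. Tgfb2 lies farthest from these medians, at -2.18 and -2.58.

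The order of the levels differed between genotypes. In wild type Tgfb2 stood first at 72.1 TPM, above Tgfbr1 at 18.1 TPM, and neither overlapped the gene next below it. Tgfb3 (9.16 TPM), Ltbp3 (8.92 TPM), Tgfbr2 (7.60 TPM) and Ltbp4 (7.07 TPM) followed, each overlapping the next. Tgfb1 (4.24 TPM) and Tgfbr3 (3.05 TPM) came lower without overlap with their neighbours, and Smad7 (1.47 TPM) and Ltbp1 (1.26 TPM) were last and overlapped. In the knockout Tgfbr1 stood first at 21.8 TPM, then Ltbp3 at 16.8 TPM and Tgfb2 at 16.5 TPM. In the knockout the range over the 3 libraries of each gene overlapped that of the next.

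The sums and ratios that follow were chosen after the values were seen. A ratio within a library, unlike a sum, does not depend on how that library was scaled. The 3 ligands together summed to 19.5, 21.3 and 32.3 TPM in knockout libraries 1, 2 and 3 and to 87.4, 95.8 and 73.2 TPM in wild type. Tgfbr1 and Tgfbr2 together summed to 40.7, 33.3 and 17.8 TPM against 25.5, 24.4 and 27.2 TPM, which overlapped. The ligand sum divided by this receptor sum was 0.478, 0.638 and 1.82 in the knockout and 3.43, 3.92 and 2.70 in wild type, so ligand TPM exceeded receptor TPM in every wild-type library and, among the knockout libraries, in library 3. Divided by the summed binding proteins, the ligands stood at 0.607, 0.606 and 2.87 in the knockout and 5.02, 5.52 and 4.32 in wild type, again without overlap.

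Other ratios showed which genes moved apart from each other. Tgfb2 made up 55.2%, 54.6% and 83.8% of ligand TPM in knockout libraries 1, 2 and 3 and 83.4%, 83.3% and 86.8% in wild type, so knockout library 3 lay in the wild-type range. Tgfbr1 over Tgfbr3 was 3.61, 3.88 and 3.91 in the knockout and 5.57, 6.11 and 6.12 in wild type. Ltbp3 over Ltbp4 was 1.88, 2.36 and 1.75 in the knockout and 1.15, 1.40 and 1.25 in wild type. In both of these ratios knockout library 3 lay with the other knockout libraries. Of 18 ratios and shares computed, those to marker genes included, 7 did not overlap between groups, each with an exact two-sided permutation p of 0.1 and a Benjamini-Hochberg value of 0.26 over the 18.

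**Figure D3:**
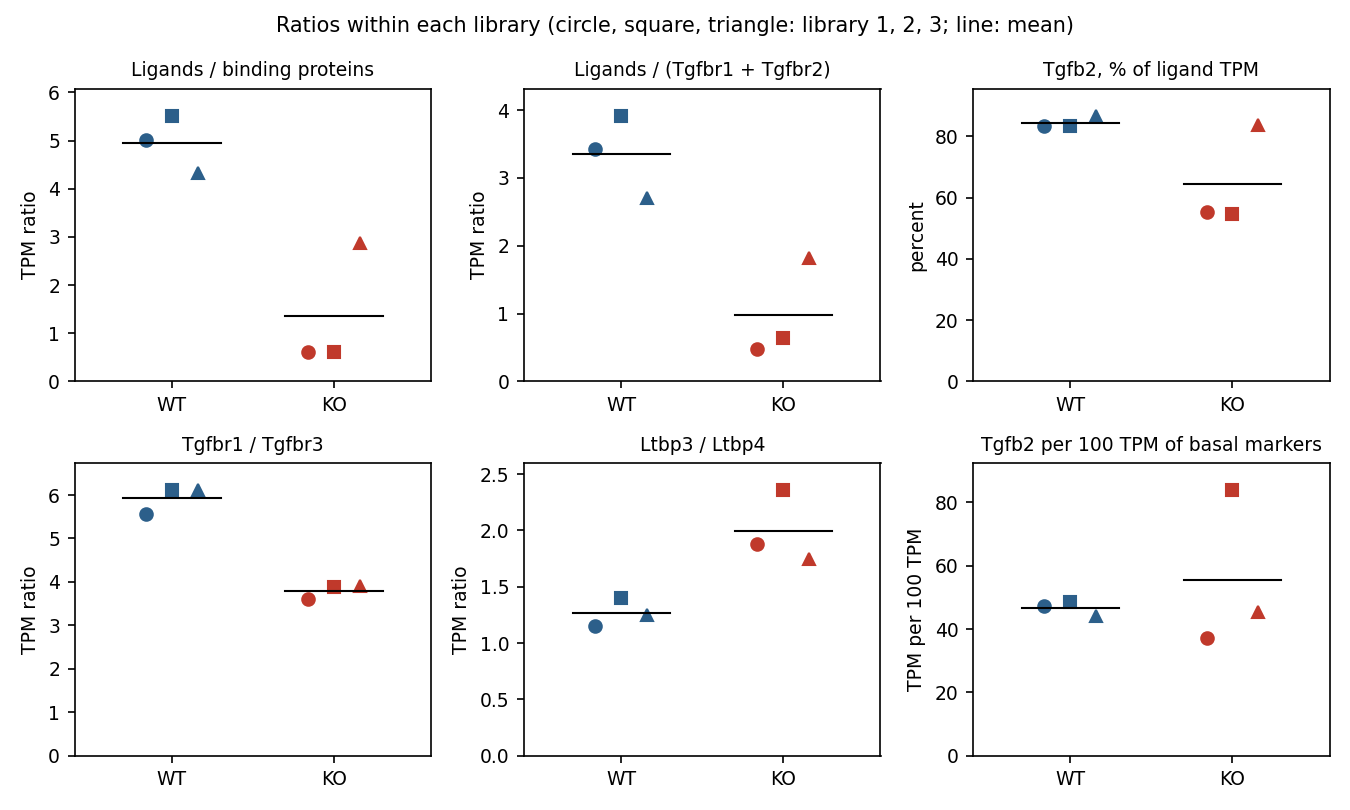
Ratios of TPM, percent of ligand TPM, or TPM per 100 TPM of markers (vertical axes, linear from 0) within each wild-type (WT) and knockout (KO) library, with circles, squares and triangles for libraries 1, 2 and 3 and a line at the mean. Ligands over binding proteins, ligands over receptors, Tgfbr1 over Tgfbr3 and Ltbp3 over Ltbp4 separate the groups, and Tgfb2 per 100 TPM of basal markers (44.1 to 48.5 in wild type, 37.1 to 84.0 in the knockout) does not.

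Marker sums of basal, myoepithelial and duct cells were lower in every knockout library, and those of acinar cells overlapped. Basal markers (6 genes, 5 tested, Trp63 among them) summed to 28.9, 13.8 and 59.8 TPM in knockout libraries 1, 2 and 3 and to 154, 164 and 144 TPM in wild type, with the highest knockout value in library 3, as for Tgfb2. Per 100 TPM of basal markers, Tgfb2 stood at 37.1, 84.0 and 45.3 in the knockout and 47.2, 48.5 and 44.1 in wild type, which overlapped. Ngfr, the highest basal marker in each library, measured 10.3, 6.13 and 39.6 TPM in the knockout and 80.5, 99.3 and 78.3 TPM in wild type. Other basal markers set knockout library 3 less apart. In knockout libraries 1, 2 and 3 Krt5 measured 5.08, 0.191 and 5.08 TPM, Krt14 9.89, 6.07 and 11.6 TPM and Col17a1 1.95, 0.589 and 1.39 TPM. Myoepithelial markers (6 of 6 tested) summed to 184 to 299 TPM against 500 to 551 TPM in wild type, and Tgfb2 per 100 TPM of them was 3.59, 6.32 and 12.6 against 13.2, 16 and 12, which overlapped. Per 100 TPM of fibroblast markers it was 3.82, 7.26 and 20.2 against 20, 28 and 18.1, which overlapped too. Per 100 TPM of duct markers it was 0.0586, 0.124 and 0.189 against 0.314, 0.338 and 0.296, and per 100 TPM of macrophage markers 4.38, 6.20 and 14.5 against 17.3, 22.1 and 16.4, and in neither did the groups overlap. Duct markers (8 of 8 tested) summed to 9370 to 18300 and 21400 to 23600 TPM, and acinar markers (6 of 8 tested), nearly all Prol1, to 86200 to 145000 and 76400 to 86600 TPM. The duct marker Klk1 measured 12600, 6310 and 10500 TPM in the knockout against 4530, 6390 and 5000 TPM in wild type, which overlapped. Egf, another duct marker, measured 3840, 1450 and 2350 TPM against 13200, 12100 and 11700 TPM. Klk1 was the highest duct marker in every knockout library and Egf in every wild-type one. The ratio of Tgfb2 to the duct sum therefore depends on how much of that sum is Klk1. The acinar marker Dcpp2 measured 793, 7.06 and 1.03 TPM against 4940, 45.9 and 1.86 TPM. Dcpp1, Smgc and Muc19 were also highest in library 1 of both genotypes. In bulk RNA, fewer cells of a type and less RNA per cell cannot be told apart, and the part of cell makeup in the Tgfb2 difference was not tested.

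Markers of cells other than epithelium were also present. Fibroblast markers (8 of 8 tested) summed to 134 to 281 TPM in knockout libraries against 285 to 365 TPM in wild type, and macrophage markers (9 of 9 tested) to 187 to 245 and 361 to 420 TPM. Endothelial markers (7 of 8 tested) summed to 20.8 to 27.8 and 31.7 to 33.7 TPM, and adipocyte markers (5 of 6 tested) to 41.5 to 249 and 84.6 to 286 TPM. Single markers did not all follow these sums. Pecam1, the highest endothelial marker on average, measured 10.5, 11 and 5.83 TPM in the knockout against 7.29, 8.18 and 7.04 TPM in wild type. The fibroblast markers Pdgfra and Dpt were highest in knockout library 1, at 12.7 and 10.5 TPM. Lymphocyte markers (0 of 8 tested) summed to 0.675 to 1.2 and 2.49 to 3.72 TPM, with Cd3e, Cd3g and Ms4a1 among those listed at 0 in some libraries. Platelet markers (1 of 5 tested, Pf4) summed to 2.85 to 3.58 and 8.40 to 14.7 TPM, with Ppbp, Gp9 and Gp1bb listed at 0 in some libraries. Per 100 TPM of macrophage markers Tgfb1 stood at 1.28, 2.31 and 1.04 in the knockout and 1.12, 1.32 and 0.840 in wild type, and per 100 TPM of fibroblast markers Tgfb3 stood at 1.99, 3.34 and 2.44 against 2.69, 3.95 and 1.82. Both overlapped between groups, and the part of these cells in the ligand values was not tested.

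The genes whose pattern over the 6 libraries was most like that of Tgfb2 were Klhdc8a, Asgr1 and Fgf9. Likeness was the root mean square distance of log2(TPM + 1) after each gene was centred on its mean, and it was 0.128 for Klhdc8a, 0.185 for Asgr1 and 0.214 for Fgf9. Klhdc8a measured 0.740, 1.35 and 3.05 TPM in knockout libraries 1, 2 and 3 and 11.4, 11.2 and 9.53 TPM in wild type. Its log2 fold change was -2.20 (adjusted p = 0.049) and, without knockout library 3, -2.53 (adjusted p = 0.00034). Those of Asgr1, an asialoglycoprotein receptor subunit, and Fgf9, a fibroblast growth factor, were both -1.84 (adjusted p = 0.081 and 0.065) and, without that library, -2.27 and -2.18 (adjusted p = 0.00031 and 0.00043). In all 3, knockout library 3 was the highest of the knockout libraries, as for Tgfb2. This pattern and the size of the fall follow from choosing genes by their likeness to Tgfb2.

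Other genes of the pathway were listed in 5 sets, of 68 genes in all, and 58 were tested. Of these 2 were called lower, Fmod and Col3a1, and 0 higher, where 0.319% and 0.071% of all genes were called. At an unadjusted p under 0.05 there were 15 lower and 2 higher of the 58, where 10.5% and 4.99% of all genes were lower and higher. Fmod, or fibromodulin, a small matrix proteoglycan that binds TGF-beta, measured 1.19, 0.219 and 0.822 TPM in knockout libraries 1, 2 and 3 and 6.81, 4.94 and 6.09 TPM in wild type. It fell by 2.03 (SE 0.27, adjusted p = 0.036), and without knockout library 3 it fell by 2.08 (adjusted p = 0.0015). Col3a1, a fibrillar collagen that TGF-beta induces, measured 4.84, 1.05 and 4.96 TPM in knockout libraries 1, 2 and 3 against 41.4, 29.1 and 30.6 TPM in wild type, and fell by 3.05 (SE 0.43, adjusted p = 0.044), and without knockout library 3 it fell by 3.31 (adjusted p = 0.0013). Col3a1 is also among the fibroblast markers, whose sum, Col3a1 included, was lower in the knockout. Both calls were lost with a pseudocount of 0.1 or 0.5, with no filter, when rescaled without the 50 most abundant genes, and when knockout library 1 or any 1 wild-type library was left out.

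The matrix partners of the latent complex (10 of 11 tested) had a median log2 fold change of -0.51, with 1 called lower. Without knockout library 3 the median was -0.41, again with 1 called lower. Over all genes tested 0.319% were called lower, and 11.7% without that library. With all libraries each of the 10 values was below 0, as were 42.6% of all genes tested. Fibroblast markers, which share Dcn with this list, summed to 134 to 281 TPM against 285 to 365 TPM in wild type, and their part in these values was not tested.

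The activators of latent TGF-beta (14 of 17 tested) had a median of -0.16 and 0 called. Without knockout library 3 the median was 0.12, with 5 called higher and 3 lower. Over all genes, leaving out that library called 33.8% higher and 11.7% lower. Thbs1, or thrombospondin 1, which can free the ligand from its propeptide, stood at -1.45 (adjusted p = 0.17), and at -1.14 without that library (adjusted p = 0.042). Bmp1, a protease that cleaves latent binding proteins, stood at -0.85 (adjusted p = 0.17), and at -0.64 without it (adjusted p = 0.0097).

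The signal transducers (7 of 8 tested) had a median of 0.50 and 0 called. Without knockout library 3 the median was 0.88, with 4 called higher and 1 lower, against 33.8% and 11.7% of all genes. Eng, a co-receptor of endothelium, stood at -0.92 (adjusted p = 0.16), and at -0.96 without that library (adjusted p = 0.018). Tgfbrap1, a receptor-associated protein, stood at 0.71 (adjusted p = 0.38), and at 1.15 without it (adjusted p = 0.0015). The negative regulators (10 of 14 tested) had a median of 0.47 and 0 called. Without that library the median was 0.76, with 7 called higher and 1 lower, against the same 33.8% and 11.7%. The ubiquitin ligase Smurf1 stood at 1.1 (adjusted p = 0.37), and at 1.8 without that library (adjusted p = 0.00054). The Smad phosphatase Ppm1a stood at 1.04 (adjusted p = 0.35), and at 1.67 without it (adjusted p = 0.00034).

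The response genes (17 of 18 tested) spread in both directions, with a median of 0.17, 9 values above 0, 8 below and 1 called lower. Without knockout library 3 their median was 0.13, with 6 called higher and 7 lower, against 33.8% and 11.7% of all genes. Those called higher were Ccn1, Cdkn1a, Junb, Bhlhe40, Lox and Gadd45b. Of these, Cdkn1a and Lox were also higher without overlap when all libraries were used. Of those called lower, Col1a1, Col1a2 and Col3a1 are also fibroblast markers and Tagln is a myoepithelial marker. Both marker sums were lower in every knockout library, but they contain these same genes. Of the fibroblast markers that are not response genes, Lum was lower in every knockout library, and Dcn, Pdgfra, Pdgfrb and Dpt overlapped between groups. The myoepithelial markers other than Tagln were each lower in every knockout library. The part of these cells in the response gene values was not tested. Over the 58 pathway genes, leaving out knockout library 3 gave 22 called higher and 13 lower, where 33.8% and 11.7% of all genes were called.

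**Figure D4:**
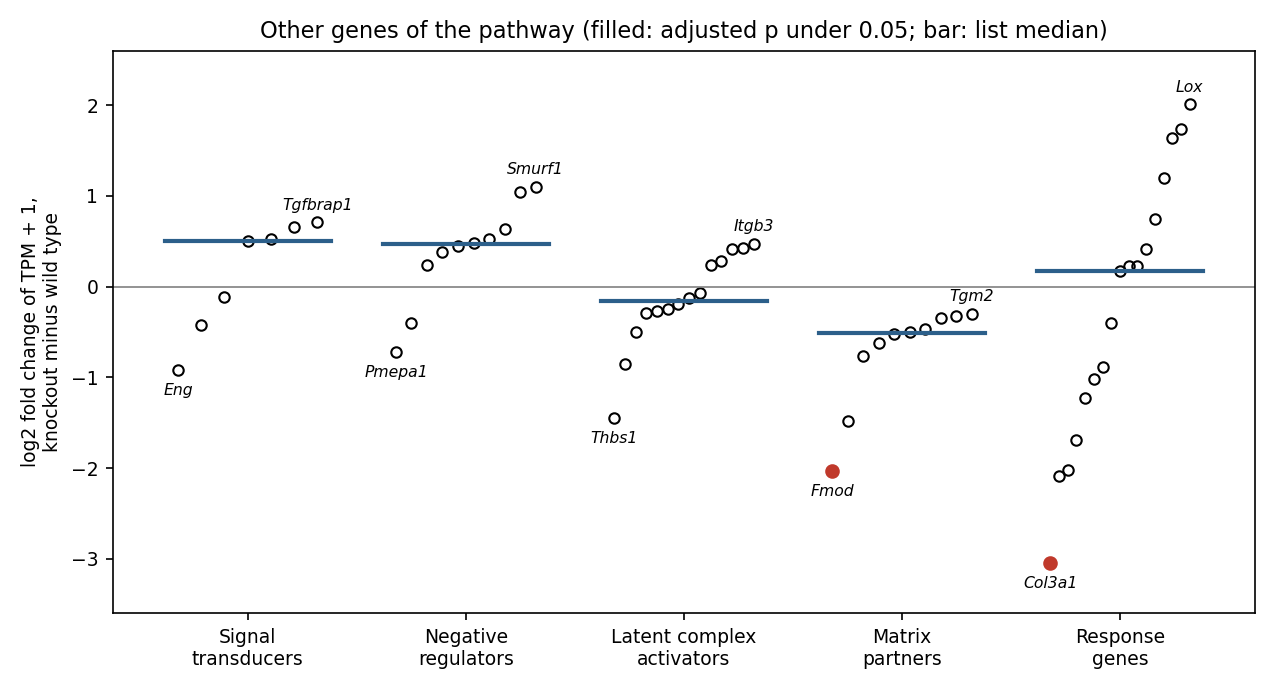
Log2 fold change of TPM + 1, knockout minus wild type (vertical axis), for the 58 tested genes of 5 pathway lists, with filled points at an adjusted p under 0.05, a bar at each list's median and the lowest and highest gene of each list named. Only Fmod (-2.03) and Col3a1 (-3.05) are filled, and all 10 matrix partners lie below 0.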

How the data were processed

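Total RNA of 3 p63 knockout and 3 wild-type submandibular gland preparations was sequenced from TruSeq libraries. The deposited table holds TPM values per gene symbol, which the authors made by scaling raw counts for gene length and library size, per the labels. The submitters' processing notes name TopHat2 2.1.1, Bowtie2 2.2.6, featureCounts 1.5.1, DESeq2 1.20.0 and build mm9. TPM carries no depth, so no count test was run.

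The 11268 of 23366 genes that reached 1 TPM in 3 or more libraries were fitted as log2(TPM + 1) with limma 3.58.1 (mean-variance trend, two-sided) in R 4.3.3, with Benjamini-Hochberg adjustment over all genes tested and a threshold of 0.05. The fit used knockout against wild type with no covariate. It was checked on simulated data. The simulation drew noise for each gene separately and held no shift of a whole library, such as that of knockout library 3. Alternatives varied the pseudocount, filter, scaling, moderation, library weights, an index block and each library. The members, lists and ratios were chosen with earlier results of these data known. Genes named besides the 10 were those called in each pathway list (otherwise the 2 with the largest absolute fold change), the 3 most like Tgfb2, and marker genes highest in a list or listed at 0. Other markers were named where they were compared with the sum of their list, or where they were also in a pathway list. Response genes called higher without knockout library 3 were named as well. The figure of the pathway also names the highest and lowest gene of each list. Promoter sequences came from RefSeq (GRCm38.p6) and exon overlaps from GENCODE M21. Plots used Python 3.11.15 and matplotlib 3.10.9.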

Additional observations from a re-analysis of the deposited data

How the results depend on the processing

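No gene of the 10 was called with all libraries under another pseudocount, filter, scaling or moderation, but library weights called 3, leaving out 1 library called 0 to 5 (5 without knockout library 3), and leaving out that library called 4 with either median-of-ratios or quantile scaling. Tgfb1, Tgfb2, Tgfb3, Tgfbr3, Ltbp3 and Smad7 kept their direction in every alternative run. Under quantile scaling Tgfbr2 stood at -0.01, Ltbp1 at 0.03 (0.10 also without knockout library 3) and Ltbp4 at -0.09. Leaving out 1 library moved Tgfbr1 from -0.05 to 0.52, Tgfbr2 from -0.08 to 0.46, Ltbp1 from -0.32 to 0.01 and Ltbp4 from -0.13 to 0.49. The median of the 10 ranged from -0.10 to 0.48.

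Of the pathway genes, 0 were called with a pseudocount of 0.1 or 0.5, with no filter or when rescaled without the 50 most abundant genes, 1 with a filter of 5 TPM, 35 with library weights, and 0 to 35 when 1 library was left out. Without knockout library 3, 34 were called with median-of-ratios and 29 with quantile scaling. Over all genes, 44 were called, against 25 with a pseudocount of 0.1, 11 with no filter, 29 with a filter of 5 TPM, 72 with quantile scaling, 4822 with library weights and 0 to 5127 when 1 library was left out. Without knockout library 3, 4646 were called with median-of-ratios and 4465 with quantile scaling. The cause of these differences was not tested.

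Index numbers in the titles set each knockout library beside a wild-type one. The numbers that open the titles set them side by side in the same way, and no label says what they mean. As no label states a pairing, they were not treated as pairs. Deviations of these neighbours correlated at 0.17, 0.23 and 0.08, and each library correlated best with its neighbour. Deviations from a group mean offset each other within the group, so these values cannot decide whether the libraries are pairs. Several acinar markers, Dcpp2 among them, were highest in library 1 of both genotypes, which are neighbours by index. A replicate block by index called 0 of the 10, 2 pathway genes and 31 genes over all. Low TPM, as for Ltbp1 and Smad7, limits precision by an amount that cannot be given without depth.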
